A study of Mus musculus with 8 samples.

Results

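The 8 genes described here encode proteins reported to bind lactoferrin (Lrp1, Ncl and Itln1) and proteins that take part in sensing bacterial lipopolysaccharide, or LPS, and lipopeptides (Cd14, Tlr4, Ly96, Tlr2 and Myd88). They were taken by their symbols from tables of 52550 genes, and all 8 were found. The RNA sequenced came from mouse bone marrow, sorted by flow cytometry into cells at the pre-pro-B stage and at the pro-B stage. The mice were wild type (WT) or lactoferrin knockout (Lf-/-), untreated, and of the C57BL/6J strain in every group. The knockout line was made earlier by the authors' group, and no Cre or transgene that would limit it to a cell type is described. At the pre-pro-B stage 2 WT and 2 Lf-/- libraries were analysed, and at the pro-B stage 1 WT and 2 Lf-/- libraries, which makes 7 of the 8 samples of the series. The remaining sample, of WT pro-B cells, is not analysed here. The methods count 3 mice in each group and the legends 2 repeats, and neither says how mice relate to libraries, so the spread between libraries may be partly technical, and the p-values measure only that spread.

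Lactoferrin is an iron-binding glycoprotein of milk, other secretions and neutrophil granules. LRP1, an endocytic receptor for many ligands, nucleolin (Ncl), a nucleolar protein that also reaches the cell surface, and intelectin-1 (Itln1), a secreted lectin, have each been described as lactoferrin receptors. Lactoferrin also binds LPS and CD14. In LPS sensing, the LPS-binding protein passes LPS to CD14, which hands it to MD-2 (Ly96), the extracellular partner of the Toll-like receptor TLR4. TLR2 responds to bacterial lipopeptides, also with the help of CD14, and both receptors signal through the adaptor MyD88. In bone marrow these genes are best known from monocytes, macrophages and neutrophils, while B cells also carry the TLR4-related pair CD180 and MD-1 (Ly86).

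Levels are given as FPKM, a count of fragments per length of transcript and per size of library, which can be compared between genes. The sum of FPKM was between 694578 and 834693 per library, and the depth read from the steps of low values was between 11000000 and 16000000 fragments in 6 libraries. No depth could be read for Lf-/- pre-pro-B replicate 2, which stood apart in that only 12172 genes were above 0 there, while every other library had 19477 to 20250. Ltf, the lactoferrin gene itself, was at 2143 to 2731 FPKM in the 3 WT libraries and at 88.2 to 168 FPKM in the 4 Lf-/- libraries, with no overlap. A list of 16 neutrophil genes took 24.1% to 51.7% of the summed FPKM of a library, lowest in Lf-/- pre-pro-B replicate 2 and highest in the WT pro-B library. For 14 genes of the early B lineage the share was 0.0277% to 0.0778% in the WT libraries and 0.223% to 0.429% in the Lf-/- libraries. Most of that sum is Cd79a and Cd79b. In pre-pro-B cells the genotypes overlapped for Vpreb1 (12.1 and 70.0 FPKM in WT, 62.1 and 33.5 FPKM in Lf-/-). They also overlapped there for Vpreb2, Igll1, Dntt and Rag2, and not for the other genes of the list. Not all of the 14 genes were detected, with Rag1 at 0 in the WT pro-B library and Rag2 at 0 in Lf-/- pre-pro-B replicate 2. In such bulk samples, fewer cells of a type and less RNA per cell cannot be told apart.

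By mean level over the 7 libraries, the order of the 8 genes was Myd88 (27.1 FPKM), Cd14 (27.0 FPKM), Ncl (13.5 FPKM), Ly96 (7.94 FPKM), Tlr2 (5.36 FPKM), Lrp1 (0.279 FPKM), Tlr4 (0.273 FPKM) and Itln1 (0.0347 FPKM). Myd88 and Cd14 did not differ beyond their spread, with Myd88 the higher in 4 of 7 libraries. Ly96 and Tlr2, as well as Lrp1 and Tlr4, likewise changed places between libraries, each pair keeping its order in 4 of 7. Ncl was above Ly96 in 6 of 7 libraries, by 0.87 ± 0.87 on the log2(FPKM + 1) scale (SD, n = 7). The widest step lay between Tlr2 and Lrp1, which differed in the same direction in 7 of 7 libraries by 2.26 ± 0.51 on that scale (SD, n = 7). The genes of LPS and lipopeptide sensing were thus measured at unequal levels, with the co-receptor, the lipopeptide receptor and the adaptor far above the LPS receptor Tlr4 itself.

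The lactoferrin-binding genes lay at very different levels, from Ncl at a mean of 13.5 FPKM to Itln1 near 0. Their promoters, the 250 bases before the RefSeq start on GRCm38.p6, are shown because they differ in CG dinucleotides, which are the letters in capitals (CG reads the same on both strands). Such sequences were read for 5 of the 8 genes (these 3, Tlr2 and Myd88). The regions are chr1:86359456-86359705 for Ncl, chr10:127621149-127621398 for Lrp1 and chr1:171535295-171535544 for Itln1, all read from the minus strand.
Ncl: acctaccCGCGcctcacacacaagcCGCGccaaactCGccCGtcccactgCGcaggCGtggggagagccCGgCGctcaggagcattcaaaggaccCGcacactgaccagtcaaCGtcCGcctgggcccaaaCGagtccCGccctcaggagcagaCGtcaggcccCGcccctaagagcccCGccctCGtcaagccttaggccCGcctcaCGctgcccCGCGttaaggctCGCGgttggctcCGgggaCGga
Lrp1: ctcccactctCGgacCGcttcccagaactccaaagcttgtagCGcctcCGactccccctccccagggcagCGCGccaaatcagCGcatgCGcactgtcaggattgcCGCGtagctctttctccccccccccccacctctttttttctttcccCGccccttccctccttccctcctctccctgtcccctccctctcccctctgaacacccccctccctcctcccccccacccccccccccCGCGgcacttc
Itln1: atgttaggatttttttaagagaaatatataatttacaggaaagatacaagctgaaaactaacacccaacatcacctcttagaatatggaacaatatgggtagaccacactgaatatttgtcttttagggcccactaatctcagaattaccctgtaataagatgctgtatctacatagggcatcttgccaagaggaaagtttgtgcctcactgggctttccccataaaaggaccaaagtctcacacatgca
The Ncl promoter holds 27 CG, and 91.4% of the 32851 promoters of the table hold fewer. The Lrp1 promoter holds 13 CG (68.5% hold fewer) and that of Itln1 holds 0 CG, as do 7.9% of all promoters, whose median is 6 CG. The promoters of Tlr2 and Myd88 hold 11 and 9 CG, at mean levels of 5.36 and 27.1 FPKM, compared with 0.279 FPKM for Lrp1. The relation of CG count to level was not tested. This is a description of the sequence, and no binding or methylation was measured here.

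Ncl (ENSMUSG00000026234, chromosome 1, 86344719 to 86359400) encodes nucleolin, which takes part in ribosome synthesis in the nucleolus. It was at 12.5 and 14.2 FPKM in WT pre-pro-B, 12.6 and 11.3 FPKM in Lf-/- pre-pro-B, 14.4 FPKM in WT pro-B, and 17.8 and 11.5 FPKM in Lf-/- pro-B. The groups overlapped at both stages, and the highest and the second lowest came from the same group, Lf-/- pro-B. The genotype difference was -0.15 on the log2 scale in pre-pro-B cells (SE 0.38, 95% interval -1.05 to 0.75, adjusted p = 0.917 by Benjamini-Hochberg in limma's test). At the pro-B stage it was -0.0057 (SE 0.47, 95% interval -1.11 to 1.10, adjusted p = 0.997 in limma's test). The 4 small RNA genes that lie within Ncl were each at 0.606 FPKM or less. Over the 7 libraries its level was 13.5 ± 2.26 FPKM (SD, n = 7).

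Lrp1 (ENSMUSG00000040249, chromosome 10, 127538161 to 127621148) encodes a large endocytic receptor for many ligands besides lactoferrin. Its level was 0.417 and 0.296 FPKM in WT pre-pro-B, 0.345 and 0 FPKM in Lf-/- pre-pro-B, 0.291 FPKM in WT pro-B, and 0.500 and 0.107 FPKM in Lf-/- pro-B. The genotypes overlapped in pre-pro-B cells, and in pro-B cells the Lf-/- values lay on either side of the WT value. Because the longest coding transcript of Lrp1 has 14888 bases, these low levels correspond to about 24.9 to 84.1 fragments in the 6 libraries with a known depth. The value of 0 came from Lf-/- pre-pro-B replicate 2, where 1437 of 2595 genes (55.4%) at 0.2 to 0.6 FPKM on average elsewhere, and above 0 in all other libraries, were also listed at 0. Lrp1 stayed below the level of 1 FPKM in 2 libraries that a gene needed to be tested, and is reported without a test.

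Itln1 (ENSMUSG00000038209, chromosome 1, 171518122 to 171535294) encodes a lectin best known from the intestine. It was listed at 0 and 0.148 FPKM in WT pre-pro-B, at 0 in both Lf-/- pre-pro-B libraries, at 0.0951 FPKM in WT pro-B and at 0 in both Lf-/- pro-B libraries. The 2 values above 0 correspond to about 2.1 and 1.6 fragments, where 1 fragment of this transcript is worth 0.0558 to 0.0783 FPKM. Itln1 was therefore at the limit of detection in every library, and a difference between the genotypes was not detectable at this depth.

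**Figure D1:**
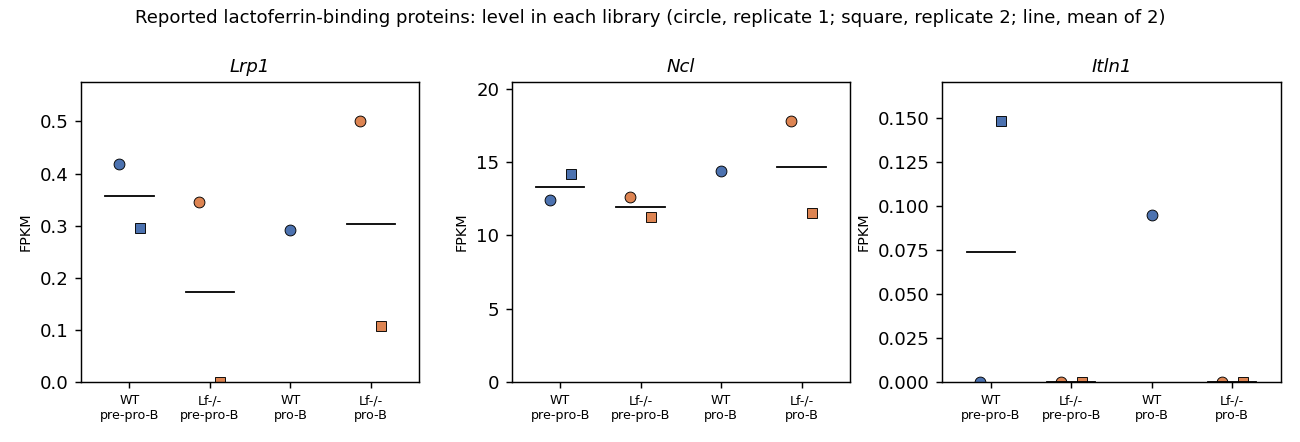
Level in FPKM (vertical axis, linear, own scale per panel) of Lrp1, Ncl and Itln1 in each of the 7 libraries, by genotype and stage (circle, replicate 1; square, replicate 2; line, mean where a group has 2 libraries). Ncl lies between 11.3 and 17.8 FPKM throughout, while Lrp1 reaches at most 0.500 FPKM and Itln1 at most 0.148 FPKM.

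Of the 8 genes, 5 passed the filter and were tested (Ncl, Cd14, Ly96, Tlr2 and Myd88), while Lrp1, Itln1 and Tlr4 fell below it. In pre-pro-B cells, limma's test gave 0 of these 5 an adjusted p under 0.05, where 0% of the 10793 genes tested were called, and 0 of the 5 had an unadjusted p under 0.05, where 4.89% of all genes did. In pro-B cells, again 0 of the 5 were called at the adjusted threshold (0% of all genes) and 0 at the unadjusted one (4.33% of all genes). With the stages combined, 0 of the 5 were called, compared with 0.0278% of all genes, and 0 of the 5 had an unadjusted p under 0.05, compared with 6.18%. The values of the genotypes did not separate for any of the 8 genes in pre-pro-B cells or over all 7 libraries, whereas they did for 33.0% and 11.0% of the genes tested. In pro-B cells both Lf-/- values lay above the WT value for Tlr4, Ly96 and Myd88, and 75.3% of the genes tested did the same. Both lay below it for Itln1, as for 6.90% of the genes tested.

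Over all genes tested, the median genotype difference (log2) was 0.024 at the pre-pro-B stage and 0.48 at the pro-B stage, so that a typical gene read higher in the Lf-/- pro-B libraries than in the WT pro-B library. After median-ratio scaling, which sets the libraries equal at their typical gene, that median was -0.10 and 0.0059. Each difference in pro-B cells is therefore given with its scaled value, which for Ncl was -0.61. The lone WT pro-B library was assumed to vary like the other groups.

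Cd14 (ENSMUSG00000051439, on chromosome 18) encodes the membrane-anchored co-receptor that binds LPS. It was at 45.0 and 19.2 FPKM in WT pre-pro-B, 18.8 and 29.6 FPKM in Lf-/- pre-pro-B, 25.5 FPKM in WT pro-B, and 32.2 and 18.8 FPKM in Lf-/- pro-B. The highest value came from a WT library, and in each group of 2 the replicates lay further apart than the group means. The genotype difference was -0.31 on the log2 scale in pre-pro-B cells (SE 0.53, 95% interval -1.56 to 0.94, adjusted p = 0.877 in limma's test) and 0.29 when WT pre-pro-B replicate 1, the highest library, was left out. In pro-B cells the difference was -0.049 (SE 0.65, adjusted p = 0.976 in limma's test) and -0.67 after scaling.

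Tlr4 (ENSMUSG00000039005, chromosome 4, 66827584 to 66930284) encodes the signal-transducing LPS receptor. Its level was 0.215 and 0.550 FPKM in WT pre-pro-B, 0.243 and 0 FPKM in Lf-/- pre-pro-B, 0.207 FPKM in WT pro-B, and 0.406 and 0.288 FPKM in Lf-/- pro-B. The genotypes overlapped in pre-pro-B cells, both Lf-/- values lay above the WT value in pro-B cells, and the value of 0 again came from Lf-/- pre-pro-B replicate 2. The values above 0 correspond to about 9.9 to 27.6 fragments. In the 6 libraries where Tlr4 was above 0, Tlr2 was 6.41-fold to 27.6-fold and Ly96 11.4-fold to 32.8-fold higher.

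Ly96 (ENSMUSG00000025779, chromosome 1, 16688051 to 16709611) encodes MD-2, which forms the LPS-binding pocket with TLR4. It was at 4.66 and 6.28 FPKM in WT pre-pro-B, 5.03 and 19.9 FPKM in Lf-/- pre-pro-B, 3.03 FPKM in WT pro-B, and 7.24 and 9.46 FPKM in Lf-/- pro-B. The WT pro-B library was the lowest and Lf-/- pre-pro-B replicate 2 by far the highest, while the other Lf-/- pre-pro-B library lay between the WT values. The genotype difference in pre-pro-B cells was 0.81 on the log2 scale (SE 0.61, 95% interval -0.64 to 2.25, adjusted p = 0.792 in limma's test). Without Lf-/- pre-pro-B replicate 2 it was -0.090, and without Lf-/- pre-pro-B replicate 1 it was 1.70, a value that rests on the library that stands apart. In pro-B cells it was 1.20 (SE 0.75, 95% interval -0.56 to 2.97, adjusted p = 0.822 in limma's test) and 0.68 after scaling. With the stages combined, Ly96 had the largest difference of the 5 genes, 1.01 (SE 0.48, adjusted p = 0.729 in limma's test), and this did not pass the threshold. It was 0.66 after scaling and 0.56 without Lf-/- pre-pro-B replicate 2.

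Tlr2 (ENSMUSG00000027995, chromosome 3, 83836272 to 83841767) encodes a receptor for bacterial lipopeptides. It was at 5.93 and 3.53 FPKM in WT pre-pro-B, 2.87 and 7.49 FPKM in Lf-/- pre-pro-B, 5.35 FPKM in WT pro-B, and 8.14 and 4.20 FPKM in Lf-/- pro-B. At both stages 1 Lf-/- library lay above and 1 below all WT values of that stage. The genotype difference was 0.032 on the log2 scale in pre-pro-B cells (SE 0.54, 95% interval -1.25 to 1.32, adjusted p = 0.988 in limma's test) and -0.53 without Lf-/- pre-pro-B replicate 2. In pro-B cells it was 0.12 (SE 0.67, adjusted p = 0.946 in limma's test), and the sign turned after scaling, at -0.44.

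Myd88 (ENSMUSG00000032508, chromosome 9, 119335934 to 119341411) encodes the adaptor that links TLR4, TLR2 and most other Toll-like receptors to the IRAK kinases. Its level was 26.5 and 24.5 FPKM in WT pre-pro-B, 18.3 and 41.8 FPKM in Lf-/- pre-pro-B, 16.1 FPKM in WT pro-B, and 33.1 and 29.4 FPKM in Lf-/- pro-B. As for Ly96, the WT pro-B library was the lowest and Lf-/- pre-pro-B replicate 2 the highest. The genotype difference was 0.12 on the log2 scale in pre-pro-B cells (SE 0.46, 95% interval -0.96 to 1.20, adjusted p = 0.947 in limma's test) and -0.46 without Lf-/- pre-pro-B replicate 2. In pro-B cells it was 0.91 (SE 0.56, 95% interval -0.41 to 2.23, adjusted p = 0.822 in limma's test), of which 0.29 was left after scaling. With the stages combined it was 0.51 (SE 0.36, adjusted p = 0.729 in limma's test). Without Lf-/- pre-pro-B replicate 1 it was 0.80, a value that rests on the library that stands apart. It was 0.12 after scaling and 0.23 without Lf-/- pre-pro-B replicate 2. Acaa1a overlaps Myd88 on the opposite strand and was at 7.86 to 12.99 FPKM, and the sources do not say whether strand was used in counting.

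**Figure D2:**
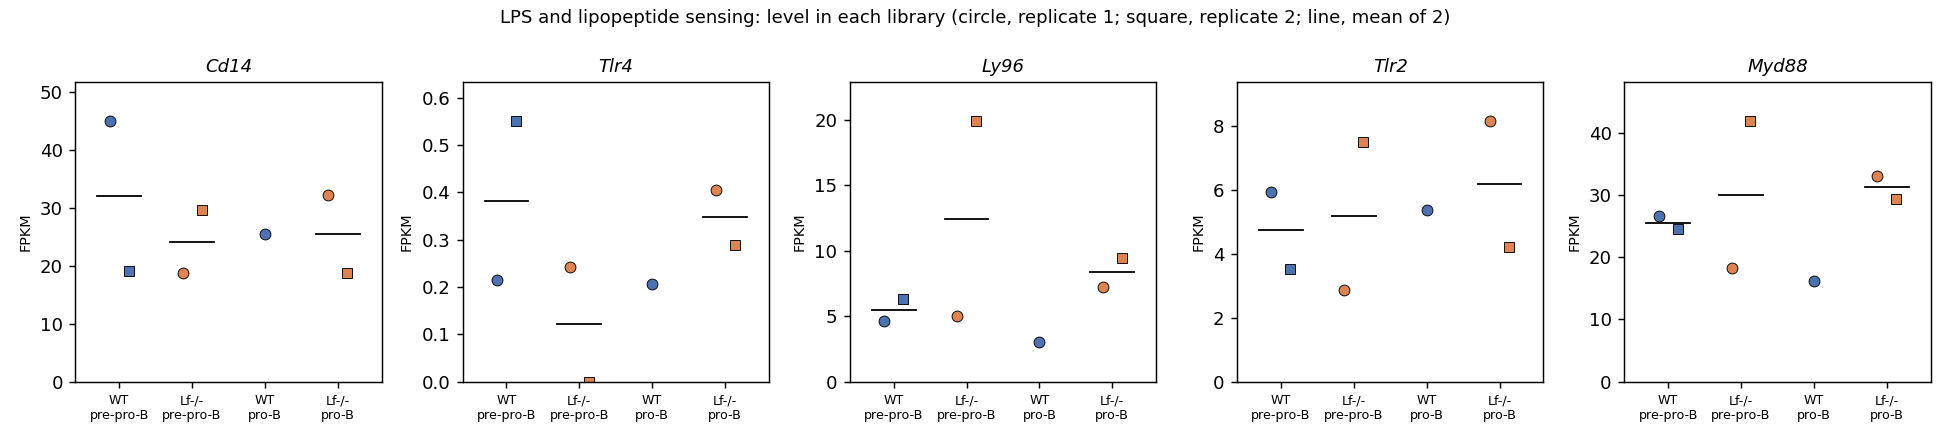
Level in FPKM (vertical axis, linear, own scale per panel) of Cd14, Tlr4, Ly96, Tlr2 and Myd88 in each of the 7 libraries, by genotype and stage (circle, replicate 1; square, replicate 2; line, mean where a group has 2 libraries). The 2 Lf-/- pre-pro-B libraries lie far apart for Ly96 (5.03 and 19.9 FPKM) and Myd88 (18.3 and 41.8 FPKM), and Tlr4 stays at or below 0.550 FPKM.

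**Figure D3:**
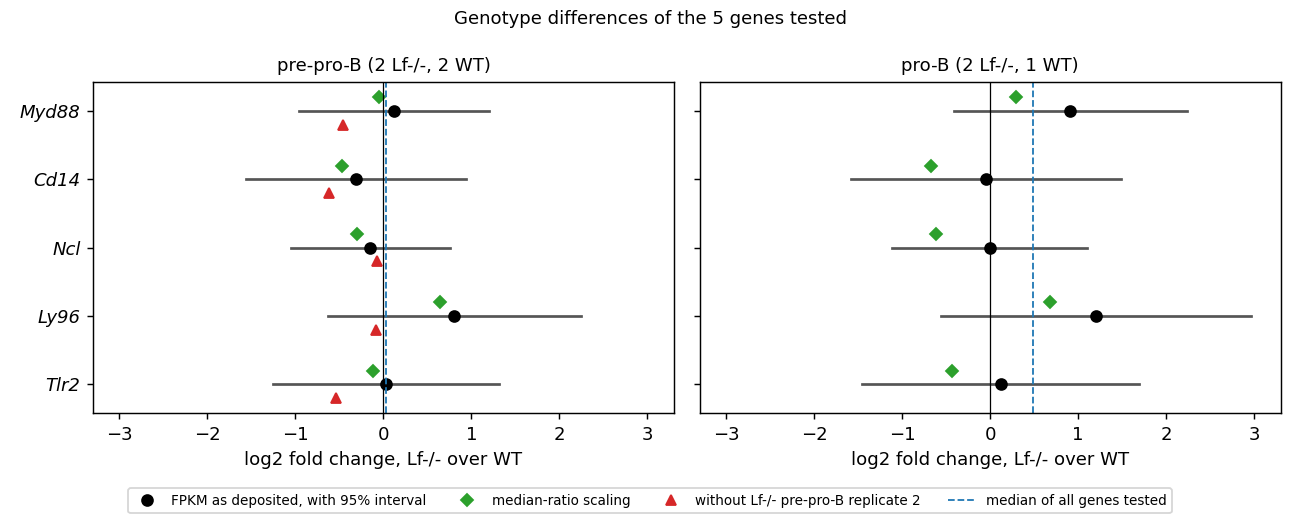
Genotype difference (horizontal axis, log2 fold change on the log2(FPKM + 1) scale, Lf-/- over WT) of the 5 genes tested in pre-pro-B cells (left) and pro-B cells (right). Black points are the deposited FPKM with 95% intervals, green diamonds the median-ratio scaled values, red triangles the values without Lf-/- pre-pro-B replicate 2, and the dashed line is the median of all genes tested. Every 95% interval includes 0, and the scaled values in pro-B cells lie to the left of the unscaled ones.

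The same genes were compared between the stages, as pro-B over pre-pro-B with both genotypes combined. The stage difference on the log2 scale was 0.18 for Ncl, -0.069 for Cd14, -0.47 for Ly96, 0.22 for Tlr2 and -0.23 for Myd88, with SE of 0.30 to 0.48. In limma's test, 0 of these 5 had an adjusted p under 0.05 (0% of all genes) and 0 an unadjusted one (1.94% of all genes). The difference of the genotype effect between the stages was tested as an interaction. It was 0.80 (SE 0.72) for Myd88, 0.40 (SE 0.96) for Ly96, 0.26 (SE 0.84) for Cd14, 0.14 (SE 0.60) for Ncl and 0.086 (SE 0.86) for Tlr2, against a median of 0.45 over all genes. Again 0 of the 5 passed the adjusted threshold (0% of all genes) or the unadjusted one (2.74% of all genes).

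The level of other cells' markers moved between the same libraries. At the pre-pro-B stage, neutrophil genes took 37.7% and 37.3% of the summed FPKM in the WT libraries and 37.0% and 24.1% in the Lf-/- libraries. At the pro-B stage they took 51.7% in the WT library and 34.1% and 38.7% in the Lf-/- libraries, and all 16 were above 0 in every library. The sum is set by S100a8, S100a9, Ngp and Camp, which were lower in both Lf-/- pro-B libraries than in the WT one. Of the 16 genes, 7 had a positive difference in pro-B cells, among them Retnlg (2269 FPKM in WT, 10205 and 3914 FPKM in Lf-/-). The median difference of the 16 in pro-B cells was -0.64, compared with 0.48 over all genes. The library with the lowest neutrophil share had the highest Ly96 and Myd88, and the library with the highest share had the lowest. Genes of monocytes and macrophages, of which all 12 were above 0 in every library, took 0.129% to 0.250% in the 3 WT libraries and 0.0832% to 0.148% in the 4 Lf-/- libraries. Most of that sum is Ly6c2 (956 to 1812 FPKM in WT and 563 to 832 FPKM in Lf-/- libraries). Of the 12 genes, 11 had a positive difference in pro-B cells, with a median of 0.485, near the 0.483 over all genes. At that stage 75.3% of all genes tested had both Lf-/- values above the WT value. In pre-pro-B cells 5 of the 12 were positive, with a median of -0.14 (0.024 over all genes). Genes of plasmacytoid dendritic cells, all 6 above 0 in every library, took 0.00510% to 0.00559% in the 3 WT libraries. They took 0.00642% and 0.0323% in the Lf-/- pre-pro-B libraries, and 0.0203% and 0.0225% in the Lf-/- pro-B libraries. Most of that sum is Bst2 and Irf8. In Lf-/- pre-pro-B replicate 1, Siglech (1.98 FPKM), Runx2 (0.981 FPKM) and Ccr9 (0.160 FPKM) lay below all WT values. Bst2, Irf8 and Tcf4 lay above all WT values there. The 3 libraries with the highest share of this list were the 3 with the highest Ly96. This was not particular to the list, since genes of mature B cells were also highest in these 3 (0.0307% to 0.0566%, and 0.0212% in the other Lf-/- library). Erythroid genes took 1.91% to 15.2%, highest in Lf-/- pre-pro-B replicate 2. The part of these cell types in the levels of the 8 genes was not tested.

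Among the 5 genes tested, the pair whose levels were most alike over the 7 libraries was Ly96 and Myd88 (Pearson's r of log2(FPKM + 1) = 0.882, n = 7), and r was 0.809 over 6 libraries without Lf-/- pre-pro-B replicate 2. Cd14 and Tlr2 followed with r = 0.764, and r = 0.778 without that library. Tlr2 and Cd14 were both high in WT pre-pro-B replicate 1, Lf-/- pre-pro-B replicate 2 and Lf-/- pro-B replicate 1. All these points share their library, with its depth and composition, and the values are given as a description.

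Over all genes tested, those most like Ly96 were Gm16124 (r = 0.996), Exog (r = 0.994), a mitochondrial nuclease, and Glmp (r = 0.993), a lysosomal membrane protein. Those most like Myd88 were Nmd3 (r = 0.998), an export adaptor of the large ribosomal subunit, Rab7 (r = 0.996), a GTPase of late endosomes, and Rbbp7 (r = 0.993), a histone-binding protein. Such likeness was common for both genes, since 302 genes had r above 0.95 with Ly96 and 221 with Myd88. For Tlr2 only 3 genes did so among those tested, namely Il1r2 (r = 0.974), the decoy receptor of interleukin-1, Tatdn3 (r = 0.964) and Plaur (r = 0.960), the urokinase receptor. For Cd14, 0 genes passed 0.95, and the nearest were the chemokine Ccl2 (r = 0.924), Rabgef1 (r = 0.882) and Gm9825 (r = 0.882). Ncl was most like Gm12230 (r = 0.972), AC118222.2 (r = 0.928) and Alg10b (r = 0.923). These 3 were low, at 0 to 3.90, 0 to 1.78 and 0.692 to 2.04 FPKM, and Ncl itself varied little (11.3 to 17.8 FPKM). They were picked as the highest r among the 10793 genes tested, so the likeness may be noise. Each r is over the 7 libraries.

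Genes around the 8 were taken from lists by their role. The list of LPS delivery, Toll-like receptor folding and related surface proteins had 12 members, of which 10 were tested. In either stage 0 were called in limma's test (0% of all genes) and 1 (Cd180) had an unadjusted p under 0.05. Of all genes, 4.33% had such a p at the pro-B stage and 4.89% at the pre-pro-B stage. The median difference of the 10 was -2.6e-05 in pre-pro-B cells (0.024 over all genes) and 0.64 in pro-B cells (0.48 over all genes). Its most abundant members were Unc93b1, a chaperone that carries Toll-like receptors to endosomes (46.4 to 279 FPKM), Itgb2, the shared chain of leukocyte integrins (59.6 to 125 FPKM), and Hsp90b1, the endoplasmic chaperone gp96 (30.5 to 45.6 FPKM). Lbp, the LPS-binding protein, was at 14.7 and 13.8 FPKM in WT pre-pro-B, 7.46 and 14.5 FPKM in Lf-/- pre-pro-B, 8.52 FPKM in WT pro-B, and 7.47 and 9.10 FPKM in Lf-/- pro-B, the lowest genotype difference of the list at both stages, which passed neither threshold.

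Cd180, a relative of TLR4 that B cells use in LPS responses, was at 1.20 and 1.04 FPKM in WT pre-pro-B, 4.60 and 7.20 FPKM in Lf-/- pre-pro-B, 1.11 FPKM in WT pro-B, and 5.17 and 4.75 FPKM in Lf-/- pro-B. All 4 Lf-/- values lay above all 3 WT values, as for 9.87% of the genes tested. The difference was 1.68 on the log2 scale in pre-pro-B cells (SE 0.40, adjusted p = 0.792 in limma's test) and 1.50 in pro-B cells (SE 0.49, adjusted p = 0.822 in limma's test), or 1.08 after scaling, and neither passed the adjusted threshold. Ly86, which encodes MD-1, the partner of CD180, was at 13.2 and 10.1 FPKM in WT pre-pro-B, 16.6 and 44.3 FPKM in Lf-/- pre-pro-B, 7.29 FPKM in WT pro-B, and 33.5 and 17.4 FPKM in Lf-/- pro-B. Here too the genotypes did not overlap, and the difference was 1.17 (SE 0.56, adjusted p = 0.792) and 1.60 (SE 0.69, adjusted p = 0.822), or 1.01 after scaling, in limma's test. Ly96, the matching partner of TLR4, did overlap between the genotypes, and the difference between Ly86 and Ly96 was not tested. The summed shares of the early B lineage and mature B lists were also higher in the 4 Lf-/- libraries (mature B genes at 0.0212% to 0.0566%, compared with 0.00453% to 0.00674% in WT). The part of these lists in the Cd180 and Ly86 values was not tested. In pre-pro-B cells, leaving out 1 library at a time gave differences of 1.40 to 1.95 for Cd180 and 0.48 to 1.85 for Ly86. Each was lowest without Lf-/- pre-pro-B replicate 2, the library that stands apart.

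**Figure D4:**
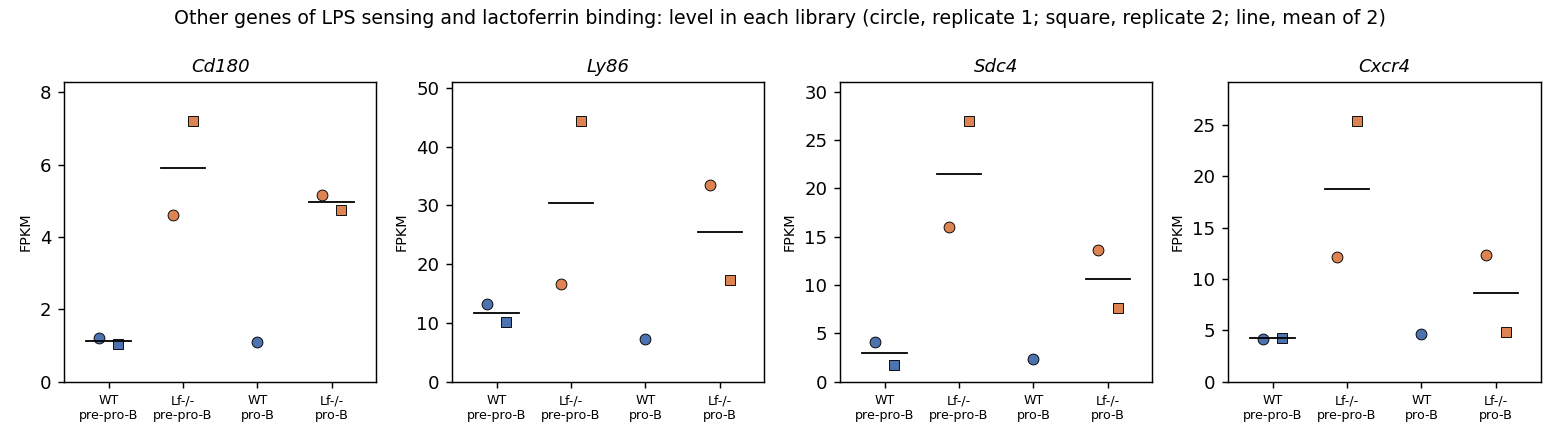
Level in FPKM (vertical axis, linear, own scale per panel) of Cd180, Ly86, Sdc4 and Cxcr4 in each of the 7 libraries, by genotype and stage (circle, replicate 1; square, replicate 2; line, mean where a group has 2 libraries). In each panel the 4 Lf-/- values lie above the 3 WT values, which reach at most 1.20, 13.2, 4.08 and 4.66 FPKM, respectively.

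Of 11 other genes whose products have been reported to bind lactoferrin, 6 were tested, and in either stage 0 were called in limma's test and 2 had an unadjusted p under 0.05, all higher in Lf-/- cells. Such a p was found for 4.33% of all genes in pro-B cells and for 4.89% in pre-pro-B cells. The median of the 6 was 0.72 in pre-pro-B cells (0.024 over all genes) and 0.98 in pro-B cells (0.48 over all genes). Sdc4, a heparan sulfate proteoglycan of the syndecan family, was at 4.08 and 1.78 FPKM in WT pre-pro-B, 16.0 and 26.9 FPKM in Lf-/- pre-pro-B, 2.38 FPKM in WT pro-B, and 13.6 and 7.65 FPKM in Lf-/- pro-B. It had the highest difference of the list in pre-pro-B cells, 2.53 on the log2 scale (SE 0.51, adjusted p = 0.642 in limma's test), and differed by 1.74 in pro-B cells (SE 0.62, adjusted p = 0.822), or 1.22 after scaling. Cxcr4, the receptor of the chemokine CXCL12, was at 4.20 and 4.25 FPKM in WT pre-pro-B, 12.1 and 25.4 FPKM in Lf-/- pre-pro-B, 4.66 FPKM in WT pro-B, and 12.4 and 4.83 FPKM in Lf-/- pro-B, with a difference of 1.83 (SE 0.55, adjusted p = 0.792) in pre-pro-B and 0.64 (SE 0.67, adjusted p = 0.822), or 0.088 after scaling, in pro-B cells. Neither passed the adjusted threshold. For both genes all Lf-/- values lay above all WT values, as for 9.87% of the genes tested.

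The C-type lectin gene Cd209a varied most, at 4.82 and 10.6 FPKM in WT pre-pro-B, 2.37 and 35.1 FPKM in Lf-/- pre-pro-B, 3.001 FPKM in WT pro-B, and 13.2 and 24.0 FPKM in Lf-/- pro-B. Its difference was 0.42 in pre-pro-B cells and -1.29 without Lf-/- pre-pro-B replicate 2, so its direction there rested on that library, and it was 2.24 (SE 1.27, adjusted p = 0.822 in limma's test) in pro-B cells, or 1.70 after scaling, the highest of the list. Sdc1 was at 1.71 to 2.51 FPKM in WT and 4.42 to 6.24 FPKM in Lf-/- pre-pro-B, and at 0.605 FPKM in WT and 2.14 to 4.04 FPKM in Lf-/- pro-B. Sdc2, which had the lowest difference in pre-pro-B cells, was at 1.78 FPKM or less in every library. In pre-pro-B cells it was at 0.881 and 1.40 FPKM in WT and 1.06 and 0 FPKM in Lf-/- libraries. The value of 0 came from Lf-/- pre-pro-B replicate 2. Gapdh, a glycolytic enzyme also described at the cell surface as a lactoferrin receptor, was at 300.4 to 580 FPKM. The endocytic receptor Lrp2 was above 0 in 1 library only, at 0.0033 FPKM, and the asialoglycoprotein receptor genes Asgr1 and Asgr2 were at 0 in all 7.

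Among genes related to Lrp1, the highest were the chaperone Lrpap1, which keeps LRP1 from binding ligands too early (11.1 to 32.4 FPKM), Lrp10 (5.93 to 17.2 FPKM) and the sorting receptor Sorl1 (2.08 to 5.25 FPKM). Lrp1b and Vldlr were at 0 in all 7 libraries. The genotype difference of Lrp10 was 0.60 (SE 0.43, adjusted p = 0.792) in pre-pro-B cells and 0.80 (SE 0.52, adjusted p = 0.822) in pro-B cells in limma's test, or 0.23 after scaling at the latter stage, and it passed neither threshold.

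Downstream of the receptors, 13 of 16 adaptor and kinase genes were tested. In limma's test 0 of the 13 were called in either stage (0% of all genes). An unadjusted p under 0.05 was found for 0 of the 13 in either stage. Over all genes that share was 4.33% at the pro-B stage and 4.89% at the pre-pro-B stage. The 13 had a median difference of 0.35 in pre-pro-B cells (0.024 over all genes) and 0.40 in pro-B cells (0.48 over all genes). The most abundant were Irf3, the transcription factor activated through the adaptor TRIF (4.17 to 10.9 FPKM), Irak3, an inhibitory kinase of the MyD88 branch (2.87 to 9.05 FPKM), and Irak1 (2.80 to 7.03 FPKM), in the order of mean log2(FPKM + 1). None reached the level of Myd88 in any library. Irak4, the kinase that MyD88 binds directly, was at 2.44 to 3.18 FPKM in 6 libraries and at 15.05 FPKM in replicate 2 of Lf-/- pre-pro-B, the same library in which Myd88 and Ly96 were highest. The ubiquitin ligase gene Traf6 was at 1.17 and 1.04 FPKM in WT pre-pro-B, 2.42 and 3.44 FPKM in Lf-/- pre-pro-B, 0.622 FPKM in WT pro-B, and 1.77 and 1.11 FPKM in Lf-/- pro-B, the highest difference of the list in pro-B cells. Map3k7, which encodes the kinase TAK1, was at 1.31 FPKM or less in every library and had the lowest difference in pre-pro-B cells. Its value in replicate 2 of Lf-/- pre-pro-B, the library that stands apart, was 0. The other Lf-/- pre-pro-B library (1.02 FPKM) lay between the WT values (0.564 and 1.03 FPKM).

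The other 10 Toll-like receptor genes were at 3.84 FPKM or less, and 4 of them were tested (Tlr1, Tlr7, Tlr9 and Tlr13). In limma's test 0 of the 4 were called in either stage (0% of all genes). An unadjusted p under 0.05 was found for 0 of the 4 in either stage. Over all genes that share was 4.33% at the pro-B stage and 4.89% at the pre-pro-B stage. Tlr1, which pairs with TLR2, was at 0.385 to 1.31 FPKM in 6 libraries and at 3.53 FPKM in replicate 2 of Lf-/- pre-pro-B. Tlr6, the other partner of TLR2, was at 0.0220 to 0.510 FPKM. Tlr7, a receptor of RNA, was at 0.324 to 2.17 FPKM. Tlr13 ranged from 0 to 3.84 FPKM and Tlr9, the receptor of unmethylated CG-rich DNA, from 0.224 to 1.79 FPKM. Of all Toll-like receptor genes, Tlr2 thus had the highest level in every library.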

How the data were processed

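RNA of sorted mouse pre-pro-B and pro-B cells was sequenced by the authors. They deposited 1 table per library with a normalized value per gene, read here as FPKM from the values and from the submitters' processing notes, which name TopHat, Cufflinks, HTSeq, DESeq and GRCm38 without role or version. Genes were matched by identifier to GENCODE M21 on GRCm38 (52403 of 52550), and promoters were taken from RefSeq on GRCm38.p6.

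The values were transformed to log2(FPKM + 1), a scale that understates the change of low genes. A gene was tested if 2 or more of the 7 libraries had 1 FPKM or more, which left 10793. The fit was made in limma 3.58.1 under R 4.3.3, with its trend of variance on level and 1 mean for each of the 4 groups, which share 1 estimate of the spread with 3 residual degrees of freedom. P-values were two-sided with Benjamini-Hochberg adjustment over all genes tested, and an adjusted p under 0.05 was the threshold. Genotype was compared within each stage and over both, stage over both genotypes, and the genotype difference between stages as an interaction. Group means are given with SD. Depth was estimated, to the nearest 1000000 fragments, from the steps of low values in genes with 1 transcript of at least 2000 bases, and intervals from counting error were not calculated. Fragment numbers of a gene assume its longest coding transcript.

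The 8 genes, the lists of related genes and of cell type markers, and the tests were chosen with earlier results of these data known. From each list of related genes, the text names the 3 most abundant genes by mean log2(FPKM + 1) and those with the highest and lowest genotype difference within a stage. For each tested gene of the 8 it names the 3 genes with the highest Pearson's r. Other genes named from the lists were chosen after their values were seen. Itln2, a member of 1 list, was not analysed here, and 1 gene of the relatives of Lrp1, with the counts over that list, is not reported here.

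Alternatives were median-ratio scaling, quantile normalization, a pseudocount of 0.1, no filter, at least 1 FPKM in every library, the replicate number as a block, the pre-pro-B libraries alone, each library left out, and, added after seeing the data, the pro-B libraries alone. The fits were tested on simulated data. All other steps ran in Python 3.11.15 (pandas 2.3.3, numpy 2.4.6, matplotlib 3.10.9).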

Additional observations from a re-analysis of the deposited data

How the results depend on the processing

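None of the 5 tested genes of the 8 was called under any alternative other than leaving out Lf-/- pre-pro-B replicate 1, which leaves the library that stands apart as the lone one of its group. Without it, Ly96 passed in pre-pro-B cells (1.70, adjusted p = 0.0191 in limma's test) and with the stages combined (1.45, adjusted p = 0.0229), as did Myd88 with the stages combined (0.80, adjusted p = 0.0411), and 3212 of all genes passed in pre-pro-B cells, among them Sdc4, Cxcr4, Cd209a, Lrp10, Cd180, Ly86 and Unc93b1 (adjusted p = 0.0126 to 0.0366). With no filter, Lrp1, Tlr4 and Itln1 were also tested and none was called in any comparison (adjusted p of 0.801 or more). Over the libraries left out, the count of all genes called ranged from 0 to 3212 for genotype at the pre-pro-B stage, 0 to 1 at the pro-B stage, 0 to 2504 with the stages combined (0 without WT pre-pro-B replicate 1 or 2, or without Lf-/- pro-B replicate 1 or 2), 0 to 347 between the stages and 0 to 561 for the interaction. With no filter it was 256 in the pro-B comparison, 150 with the stages combined, 124 between the stages and 122 for the interaction. With at least 1 FPKM in every library it was 3 in pre-pro-B and 12 with the stages combined, and with a pseudocount of 0.1 it was 0 with the stages combined, against 3 in the fit reported. The cause was not tested.

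Signs that turned belonged to differences that had not passed the threshold. With median-ratio scaling and quantile normalization, respectively, Tlr2 was at -0.12 and -0.20 at the pre-pro-B stage, -0.44 and -0.48 at the pro-B stage, -0.28 and -0.34 with the stages combined, and -0.32 and -0.28 in the interaction. Myd88 was at -0.053 and -0.019 in pre-pro-B, Cd14 at 0.086 and 0.12 between the stages and -0.20 and -0.14 in the interaction, and Ncl at -0.31 and -0.29 in the interaction. Over the libraries left out, the differences in pre-pro-B ranged from -0.90 to 0.29 for Cd14, -0.090 to 1.70 for Ly96, -0.53 to 0.60 for Tlr2, -0.46 to 0.69 for Myd88 and -1.29 to 2.13 for Cd209a. In pro-B they ranged from -0.30 to 0.29 for Ncl, -0.42 to 0.32 for Cd14 and -0.29 to 0.52 for Tlr2. With the stages combined they ranged from -0.22 to 0.070 for Ncl, -0.48 to 0.12 for Cd14 and -0.21 to 0.36 for Tlr2. Between the stages they ranged from -0.37 to 0.23 for Cd14, -0.059 to 0.51 for Tlr2 and -0.52 to 0.054 for Myd88. In the interaction they ranged from -0.15 to 0.44 for Ncl, -0.33 to 0.85 for Cd14, -0.50 to 1.29 for Ly96 and -0.48 to 0.65 for Tlr2.

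The replicate numbers come from the labels, which do not say what they share, and the deviations of same-numbered libraries correlated at 0.039, 0.053 and -0.013, so the numbers were not taken as pairs. With the number as a block, the counts of calls were 0 within either stage, 3 with the stages combined, and 0 between the stages and for the interaction, while Ncl was at 0.088 and Cd14 at 0.17 in pro-B and Ly96 at -0.017 in the interaction. The 2 or fewer libraries per group limit every comparison, and the depth limits Lrp1, Tlr4 and Itln1.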

Other observations

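Lists of other cell types not yet described were also measured in the 7 libraries. The 4 genes of surface proteins used in sorting B cell precursors (Ptprc, Cd93, Spn and Cd24a) were above 0 in every library. They took 0.0253% to 0.0461% of the summed FPKM in WT and 0.0430% to 0.0723% in Lf-/- libraries. Most of that sum is Cd24a (197 to 341 FPKM in WT and 297 to 513 FPKM in Lf-/- libraries). For each of the 4 genes the genotypes overlapped over the 7 libraries. The 7 genes of T and NK cells took 0.109% to 0.167% in WT and 0.0596% to 0.138% in Lf-/- libraries, with Cd3g and Klrb1c at 0 in Lf-/- pre-pro-B replicate 2. Most of that sum is Nkg7 (324 to 1283 FPKM). Of the 7 genes, 6 had a positive genotype difference in pro-B cells, with a median of 1.29 (0.48 over all genes). At that stage 75.3% of all genes tested had both Lf-/- values above the WT value. In pre-pro-B cells 4 of the 7 were positive, with a median of 0.15 (0.024 over all genes). The 5 stromal genes took 0.00121% to 0.00181% in WT and 0.000584% to 0.00132% in Lf-/- libraries. Of these 5, Vcam1 alone passed the filter, at 9.89 to 14.2 FPKM in WT and 3.96 to 7.96 FPKM in Lf-/- libraries, and it makes up most of the sum of that list. Lepr, the leptin receptor of stromal cells, was at 0 in 6 of the 7. Cxcl12 was at 0.0196 FPKM or less in every library. Col1a1 was at 0.0526 to 0.198 FPKM in WT and 0 to 1.21 FPKM in Lf-/- libraries. Pdgfrb was at 0.108 to 0.170 FPKM in WT and 0 to 0.143 FPKM in Lf-/- libraries.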
